A study of Drosophila melanogaster with 6 samples.

Results

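The Hippo pathway restrains tissue growth in Drosophila through a chain of kinases. Hippo activates Warts, and Warts phosphorylates the coactivator Yorkie and keeps it out of the nucleus, where Yorkie would otherwise act through the DNA-binding protein Scalloped. The atypical cadherin Fat feeds into this chain and restrains the myosin Dachs, which lowers Warts, and Fat and Hippo signalling are known to regulate growth of the optic lobe neuroepithelium and its change into neuroblasts. In the eye disc, four-jointed (fj) is graded along the dorsal-ventral axis. A comparison of dorsal and ventral neuroepithelium gives the RNA level of these genes in each group of cells. It cannot show a gradient within either group.

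The 10 genes described here are the core and Fat branch genes yki, sd, hpo, wts, ex, kibra, ft, fj, dachs and Diap1, taken from a list by name. The list gives dachs by its symbol d, which the RefSeq gene table holds as a synonym. All 10 were found among the 17559 gene identifiers of the count table, and all 10 passed the filter on low counts that left 8707 genes. RNA was sequenced from the outer proliferation centre, the larval optic lobe neuroepithelium that gives rise to the medulla. Dorsal cells made 3 libraries and ventral cells made 3 libraries. In both groups GFP-labelled cells were drawn by glass micropipette from late L2 brains of larvae labelled female and raised at 25 °C, and the cells of 3 to 4 brains were pooled for each library. The labels name no genotype, GFP driver or separate collection day, so the p-values cover the spread among these pools of cells, part of which may be technical.

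Counted reads numbered 21114019 to 27815885 per library, and values are given in CPM (read counts brought to a common total with TMM-adjusted library sizes). The spalt genes salm and salr, high in dorsal cells, ranged over 34.0 to 60.0 CPM in dorsal libraries, against 0.0491 to 0.417 CPM in ventral ones, and disco over 0.624 to 3.59 CPM in dorsal libraries, against 32.6 to 61.4 CPM in ventral ones. All 12 neuroepithelial markers found by name were read in every library, among them crb and shg, and summed to 1792 to 2496 CPM in dorsal libraries and 1671 to 2799 CPM in ventral ones. Markers of other cells were read too: the 7 neuroblast genes summed to 885 to 1347 CPM in dorsal libraries and 1055 to 1650 CPM in ventral ones, and the 6 neuron genes to 485 to 920 CPM in dorsal libraries and 624 to 1231 CPM in ventral ones. The roX2 RNA, made mainly in males, stood at 624, 269 and 0 CPM in dorsal replicates 1, 2 and 3 and at 261, 3.05 and 234 CPM in ventral replicates 1, 2 and 3, although all 6 libraries are labelled female.

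No Hippo or Fat gene of the 10 differed between dorsal and ventral cells beyond the spread of the libraries. With edgeR (quasi-likelihood test, Benjamini-Hochberg adjustment over 8707 genes, threshold 0.05) 0 of the 10 were higher in dorsal cells (background 0.0230% of all tested genes) and 0 were higher in ventral cells (background 0.0689%), where 0.0919% of all tested genes were called in either direction. None of the 10 had an unadjusted p under 0.05 with edgeR (background 3.20%) or with DESeq2 (background 3.84%), and DESeq2 called 0 (background 0.322%). The values of dorsal and ventral libraries overlapped for all 10, where 7.26% of all tested genes had groups that did not overlap. The log2 fold change, dorsal minus ventral throughout, was above 0 for 3 of the 10 and below 0 for 7, with a median of -0.13 against 0.0012 over all tested genes. These counts do not show that the levels were equal: the 95% interval of the fold change stayed within 2-fold in both directions for 9 genes and went past it for 1, fj.

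**Figure D1:**
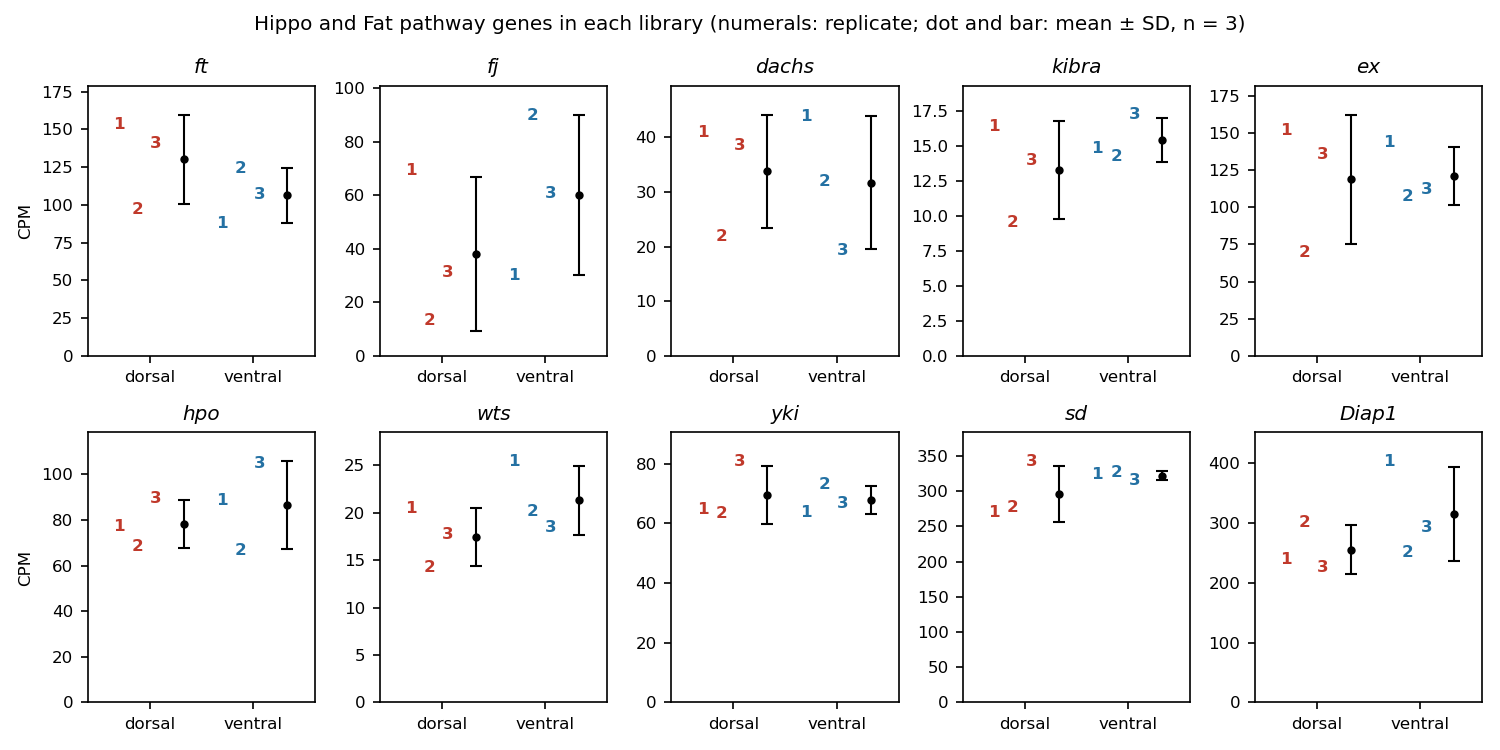
Level of each of the 10 genes (vertical axes, CPM, starting at 0) in dorsal (left, red) and ventral (right, blue) libraries; each numeral is 1 library, and the black dot and bar are the mean ± SD of 3 libraries. The groups overlap in every panel, and the ratio of the highest to the lowest library is widest for fj, at 6.83 (13.1 to 89.8 CPM).

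The Fat branch held the gene with the widest ratio between its highest and lowest library, fj. The gene fj (FBgn0000658, dm6 2R, 18232761 to 18236311, plus strand) encodes a Golgi kinase that phosphorylates the cadherin repeats of Fat and of its partner Dachsous. Its level was 69.5, 13.1 and 31.3 CPM in dorsal replicates 1, 2 and 3, and 30.1, 89.8 and 60.7 CPM in ventral replicates 1, 2 and 3. Dorsal replicate 2 was the lowest and ventral replicate 2 the highest, and ventral replicate 1 lay just below dorsal replicate 3. The means were 38.0 ± 28.8 CPM in dorsal libraries and 60.2 ± 29.8 CPM in ventral ones (SD, n = 3 each). That gave a log2 fold change of -0.67 ± 0.54 (SE; 95% interval -1.87 to 0.54; unadjusted p = 0.247, adjusted p = 1.00, edgeR). It moved to -1.44 when dorsal replicate 1 was left out, to -0.26 when dorsal replicate 2 was, to -0.99 when ventral replicate 1 was and to -0.27 when ventral replicate 2 was, and it did not pass in any of these 4 fits. In such pooled tissue, fewer cells that express a gene and less RNA of it per cell cannot be told apart.

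Fat itself (ft, FBgn0001075, dm6 2L, 4198404 to 4221796, minus strand), the receptor of the branch, stood at 153, 96.8 and 141 CPM in dorsal replicates 1, 2 and 3 and at 87.8, 124 and 107 CPM in ventral replicates 1, 2 and 3. Dorsal replicates 1 and 3 lay above every ventral library, while dorsal replicate 2 lay below ventral replicates 2 and 3. Its log2 fold change was 0.29 ± 0.22 (95% interval -0.19 to 0.78), with an unadjusted p of 0.209 and an adjusted p of 1.00 (edgeR). Fits without 1 library at a time put it between 0.15, without dorsal replicate 1, and 0.47, without dorsal replicate 2.

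The unconventional myosin gene dachs (FBgn0262029, dm6 2L, 8466817 to 8488671, plus strand) acts downstream of Fat. It stood at 40.9, 21.9 and 38.5 CPM in dorsal replicates 1, 2 and 3, and at 43.7, 32.0 and 19.3 CPM in ventral replicates 1, 2 and 3. The low libraries were dorsal replicate 2 and ventral replicate 3, so both groups held a high and a low value. Dorsal minus ventral was 0.092 ± 0.34 on the log2 scale (95% interval -0.66 to 0.84), and fits without 1 library at a time put it between -0.17 and 0.39. The gene ds, which encodes the Fat ligand Dachsous, was not analysed here by name.

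Neither of the upstream scaffold genes, ex and kibra, differed beyond the spread of its libraries. Expanded (ex, FBgn0004583, dm6 2L, 431227 to 448701, plus strand), a FERM domain protein that activates the kinases and binds Yorkie, is also a transcriptional target of Yorkie. It stood at 151, 69.5 and 135 CPM in dorsal replicates 1, 2 and 3 and at 143, 107 and 112 CPM in ventral replicates 1, 2 and 3. Dorsal replicate 2 stood apart below the other libraries, and the ventral range lay inside the dorsal one. Its log2 fold change of -0.028 ± 0.27 (95% interval -0.64 to 0.58) was the nearest to 0 of the 10 genes. It was 0.24 without dorsal replicate 2, again without a call. The exons of ex overlap those of crq by 448 bp on the opposite strand, and neither labels nor headers say whether counting used strand, so reads of the pair cannot be told apart there. The reads of crq numbered 842 to 1290 per library, against 1963 to 3884 of ex.

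Kibra (FBgn0262127, dm6 3R, 14697689 to 14724261, minus strand), a WW domain protein that works with Expanded and Merlin at the cell cortex, had the lowest level per exon length of the 10 genes. Its values were 16.3, 9.49 and 14.0 CPM in dorsal replicates 1, 2 and 3, and 14.8, 14.2 and 17.2 CPM in ventral replicates 1, 2 and 3. Ventral replicate 3 was the highest and dorsal replicate 2 stood apart below. Its log2 fold change was -0.22 ± 0.31 (95% interval -0.90 to 0.47; unadjusted p = 0.497, edgeR), and leaving out dorsal replicate 2 left -0.024.

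Both kinase genes overlapped between the groups. Hippo (hpo, FBgn0261456, dm6 2R, 19493996 to 19496856, minus strand), the upstream kinase of the chain, stood at 77.1, 68.3 and 89.3 CPM in dorsal replicates 1, 2 and 3 and at 88.4, 66.7 and 105 CPM in ventral replicates 1, 2 and 3. The lowest and the highest library were both ventral. Between the groups the log2 difference was -0.15 ± 0.21 (95% interval -0.62 to 0.33). The exons of hpo overlap those of Rep by 130 bp on the opposite strand, where reads of the pair cannot be told apart either. Reads of Rep numbered 788 to 1574 per library, against 1357 to 2541 of hpo.

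Warts (wts, FBgn0011739, dm6 3R, 30789625 to 30806619, minus strand), the kinase that phosphorylates Yorkie, stood at 20.4, 14.2 and 17.7 CPM in dorsal replicates 1, 2 and 3, and at 25.4, 20.1 and 18.4 CPM in ventral replicates 1, 2 and 3. Ventral replicate 1 was the highest and dorsal replicate 2 the lowest, and dorsal replicate 1 lay among the ventral values. This gave a log2 fold change of -0.29 ± 0.27 (95% interval -0.88 to 0.30; unadjusted p = 0.298, adjusted p = 1.00, edgeR).

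The nuclear effectors had the smallest ratios of highest to lowest library. The coactivator gene yorkie (yki, FBgn0034970, dm6 2R, 24065975 to 24068485, minus strand) stood at 64.7, 63.2 and 80.8 CPM in dorsal replicates 1, 2 and 3 and at 63.8, 73.1 and 66.7 CPM in ventral replicates 1, 2 and 3. Dorsal replicate 3 was the highest, and the log2 fold change was 0.036 ± 0.19 (95% interval -0.38 to 0.45). Its highest library exceeded its lowest 1.28-fold, and 91.4% of the 6187 tested genes with a mean of at least 10 CPM spread more widely, their median being 1.66-fold.

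Scalloped (sd, FBgn0003345, dm6 X, 15804370 to 15827682, plus strand), the TEAD family factor through which Yorkie reaches DNA, stood at 270, 276 and 342 CPM in dorsal replicates 1, 2 and 3 and at 324, 327 and 315 CPM in ventral replicates 1, 2 and 3. The ventral values were close together and lay inside the dorsal range. Its log2 fold change was -0.12 ± 0.16 (95% interval -0.48 to 0.24), the narrowest interval of the 10 genes. The ratio of its highest to its lowest library was 1.27, and 92.2% of genes with a mean of at least 10 CPM spread more widely.

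The caspase inhibitor gene Diap1 (FBgn0260635, dm6 3L, 16038410 to 16051034, minus strand), a direct target of Yorkie and Scalloped in imaginal discs, had the smallest p of the 10. Its level was 239, 301 and 225 CPM in dorsal replicates 1, 2 and 3, and 403, 250 and 293 CPM in ventral replicates 1, 2 and 3. Ventral replicate 1 stood well above the rest, and dorsal replicate 2 lay above the other two ventral libraries. A log2 fold change of -0.30 ± 0.21 followed (95% interval -0.78 to 0.17; unadjusted p = 0.181, adjusted p = 1.00, edgeR); it was -0.091 without ventral replicate 1. The exons of Diap1 share 347 bp with asRNA:CR45889 on the opposite strand, which held 2 to 8 reads per library.

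**Figure D2:**
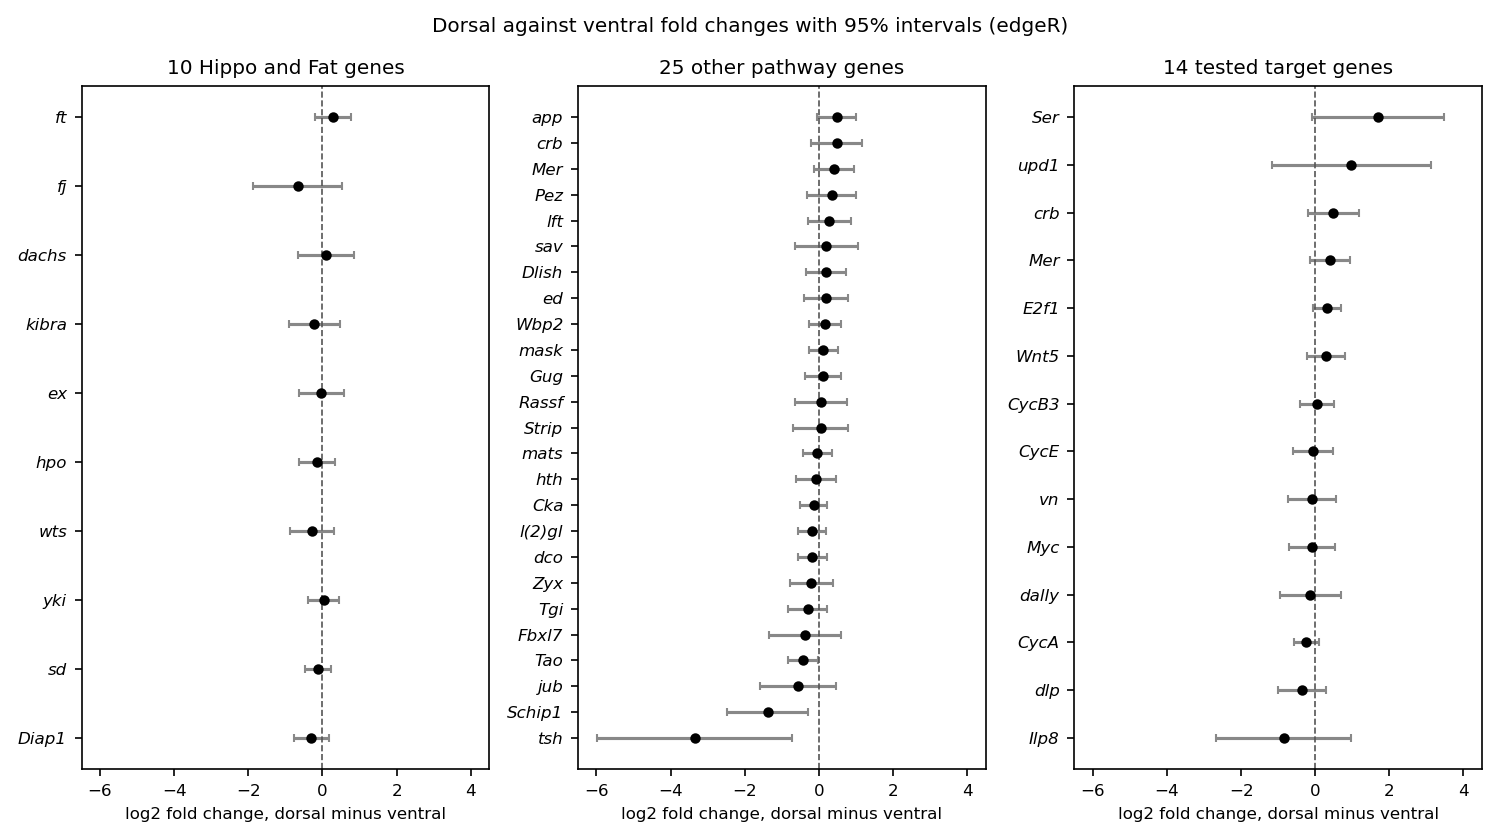
Log2 fold changes, dorsal minus ventral (horizontal axes, edgeR), with 95% intervals for the 10 Hippo and Fat genes (left), 25 other pathway genes (middle) and 14 tested target genes (right). The intervals of the 10 genes all span 0, and that of fj is the widest, from -1.87 to 0.54; in the middle panel tsh, Schip1 and Tao have intervals that lie below 0, and none of the 3 passed the adjusted test.

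Per exon length, the 10 genes were read in a wide range of levels. Levels in RPKM (TMM-scaled reads per kilobase of annotated exon, on the CPM scale) allow genes to be set beside each other. Diap1 was the highest, at 81.2 ± 12.9 RPKM in dorsal and 100 ± 25.1 RPKM in ventral libraries, and 14.5% of the 8528 tested genes with an exon length had a higher mean. Next came yki at 45.6 ± 6.41 RPKM in dorsal and 44.5 ± 3.09 RPKM in ventral libraries, then sd at 33.8 ± 4.57 and hpo at 27.9 ± 3.77 RPKM in dorsal libraries, with 36.7 ± 0.726 RPKM of sd and 30.9 ± 6.81 RPKM of hpo in ventral libraries. The middle of the order held ex, with a mean of 18.0 RPKM over 6 libraries, and fj with 13.8 RPKM. The lower end held ft with 7.01, dachs with 5.35, wts with 3.34 and kibra with 2.49 RPKM, and 76.0% of tested genes had a higher level than kibra.

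Among the 9 pairs of neighbours in this order, Diap1 and yki, yki and sd, and hpo and ex had ranges over 6 libraries that did not overlap. The other 6 pairs overlapped and did not differ beyond their spread by that measure, although wts lay above kibra in 6 of 6 libraries. In fj the range of 3.70 to 25.3 RPKM spanned the means of both its neighbours, ex and ft. The RNA of the coactivator gene yki was thus read at a mean of 45.1 RPKM beside 29.4 RPKM for hpo and 3.34 RPKM for wts, the kinase acting on Yorkie directly. Exon length here is the union of all annotated exons, so a gene that uses only some of them is understated.

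**Figure D3:**
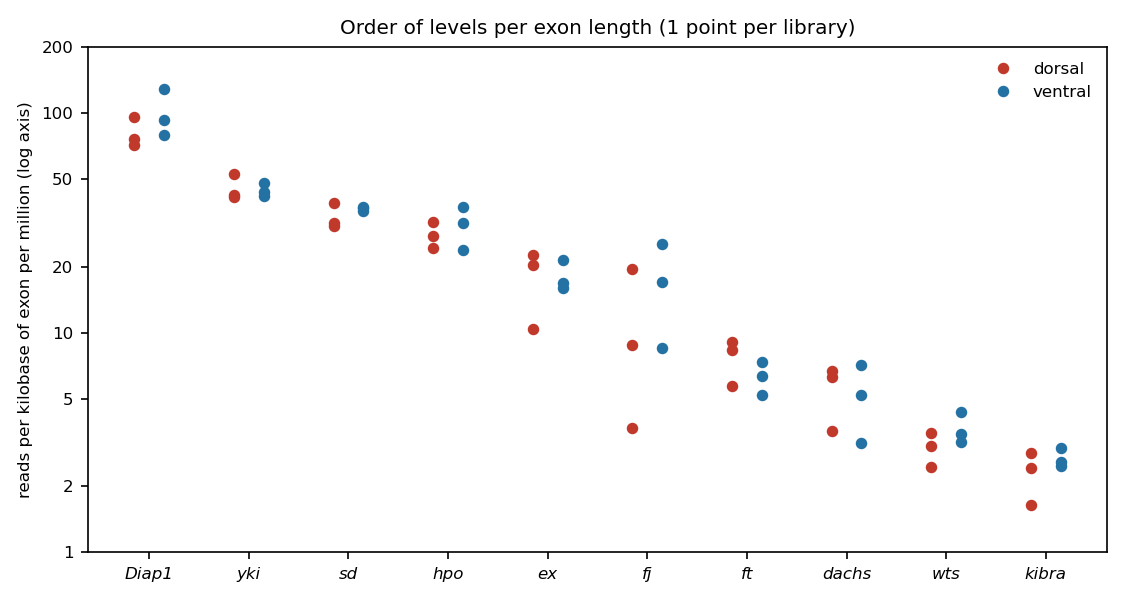
Level of each gene per exon length (vertical log axis, reads per kilobase of exon on the CPM scale) in dorsal (red, left) and ventral (blue, right) libraries, 1 point per library, ordered by the mean over 6 libraries. Diap1 leads at 71.7 to 128 RPKM and kibra is last at 1.65 to 2.99 RPKM.

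A single library held many of the low values. Dorsal replicate 2 was the lowest dorsal library for 8 of the 10 genes, all but sd and Diap1, and the lowest of all 6 for yki, wts, ex, kibra and fj. The median deviation of the 10 genes from their mean over 6 libraries was -0.34 on the log2 scale in dorsal replicate 2, against 0.024 over all tested genes in that library. In the other 5 libraries this median lay between -0.0025 and 0.15. Diap1 did the reverse in dorsal replicate 2, where it was the highest of the dorsal libraries.

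Markers of cell types also moved in that library. The 12 neuroepithelial markers summed to 2496, 1792 and 2187 CPM in dorsal replicates 1, 2 and 3 and to 1671, 2799 and 2022 CPM in ventral replicates 1, 2 and 3. The 7 neuroblast markers summed to 1080, 1347 and 885 CPM in dorsal replicates 1, 2 and 3, and to 1650, 1194 and 1055 CPM in ventral replicates 1, 2 and 3. Dorsal replicate 2 and ventral replicate 1 thus had the lowest neuroepithelial and the highest neuroblast sums of their groups. A few genes carried much of these sums. The level of hth was 521.5 to 1078 CPM over the libraries, and that of l(1)sc was 177 to 559 CPM. The gene wor was at 519 CPM in ventral replicate 1. Some other markers went the other way. Of all 6 libraries, sdt (54.5 CPM) and aPKC (163 CPM) were highest in ventral replicate 1. The lowest l(1)sc value was in dorsal replicate 2, at 177 CPM, and dpn and insc were highest of the dorsal libraries in dorsal replicate 1. Among ventral libraries, l(1)sc, pros and insc were not highest in ventral replicate 1. The neuroepithelial markers shg, N, Vsx1 and par-6 were not lowest of the dorsal libraries in dorsal replicate 2. Optix was not lowest of the ventral libraries in ventral replicate 1. In ventral replicate 1, yki, ft and fj were the lowest of the ventral libraries, while dachs, ex, wts and Diap1 were the highest. The 6 glia markers summed to 186, 209 and 138 CPM in dorsal replicates 1, 2 and 3. In ventral replicates 1, 2 and 3 they summed to 204, 130 and 127 CPM. Most of each glia sum was Eaat1, at 117 to 177 CPM per library, while repo stood at 0.156 to 3.03 CPM. Among dorsal libraries moody was lowest in dorsal replicate 2, at 5.24 CPM. For the 4 eye disc markers the sums were 51.3, 90.6 and 41.5 CPM in dorsal replicates 1, 2 and 3. In ventral replicates 1, 2 and 3 they were 105, 31.0 and 38.2 CPM. The glia and eye disc sums were thus also highest in dorsal replicate 2 and ventral replicate 1 within their groups. Most of the eye disc sums came from ey and toy, while gl stood at 1.52 to 5.50 CPM and ato at 0 to 0.0382 CPM. Of the dorsal libraries, gl was lowest in dorsal replicate 2. The eye disc sums thus followed ey and toy, and whether eye disc RNA was present was not tested. No neuroepithelial, neuroblast or glia marker was at 0 reads in any library, while 1 eye disc marker, ato, was too low to be tested. The part of the cell make-up of the libraries in these values was not tested.

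**Figure D4:**
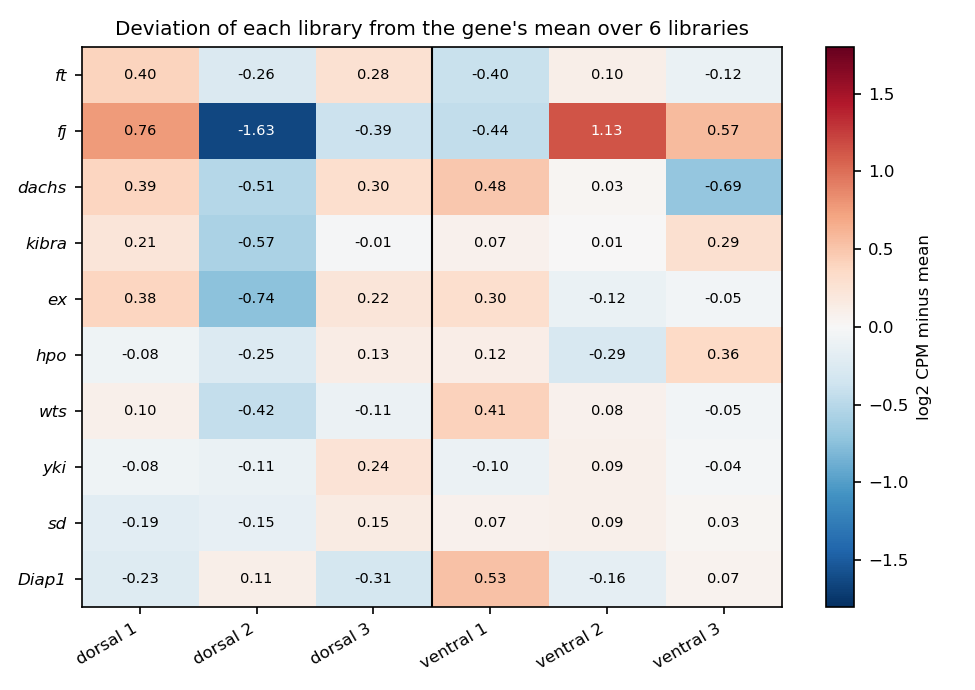
Deviation of log2 CPM in each library (columns, 3 dorsal left of 3 ventral) from the mean of that gene over 6 libraries (rows, 10 genes); red is above and blue below the mean, and the numbers give the deviation. The column of dorsal replicate 2 is below the mean for every gene but Diap1, and its lowest value is that of fj at -1.63.

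Over the 6 libraries the 10 genes did not vary as a block. Pearson correlations of log2 CPM between the 45 pairs of genes ran from -0.92 to 0.81 with a median of 0.27, and 34 were above 0. The highest were 0.81 for ex with kibra and 0.80 for kibra with fj, and both rest in part on the low dorsal replicate 2. The lowest was -0.92 for ft with Diap1: ft was low and Diap1 high in ventral replicate 1 and dorsal replicate 2. With 6 libraries that share depth and cell make-up between genes, these values describe the samples and carry no test.

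The genes most like Diap1, the gene with the smallest p, were RPA1 (r = 0.985), CG15201 (0.979) and CG15892 (0.978) over the 6 libraries. As the highest correlations among all tested genes, these values are high by selection. CG15201 stood at 0.994 to 12.6 CPM and CG15892 at only 0.312 to 1.10 CPM. RPA1, which encodes a subunit of the single-strand DNA binding protein of replication, stood at 134, 163 and 136 CPM in dorsal replicates 1, 2 and 3 and at 195, 148 and 158 CPM in ventral replicates 1, 2 and 3. Both RPA1 and Diap1 were highest in ventral replicate 1 and, among dorsal libraries, in dorsal replicate 2.

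For fj, chosen for this after its wide spread was seen, the most similar of all tested genes was tailless (tll, r = 0.985), an orphan nuclear receptor gene of the optic lobe. The level of tll was 277, 59.3 and 124 CPM in dorsal replicates 1, 2 and 3, and 153, 295 and 221 CPM in ventral replicates 1, 2 and 3. Both genes had their lowest value in dorsal replicate 2 and their highest in ventral replicate 2, with dorsal replicate 1 next. The following genes were lncRNA:CR44743 (r = 0.984) and Prx3 (r = 0.982), of which Prx3 moved only between 386 and 498 CPM. The highest of so many correlations over 6 points is high by selection, so the likeness is a description.

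**Figure D5:**
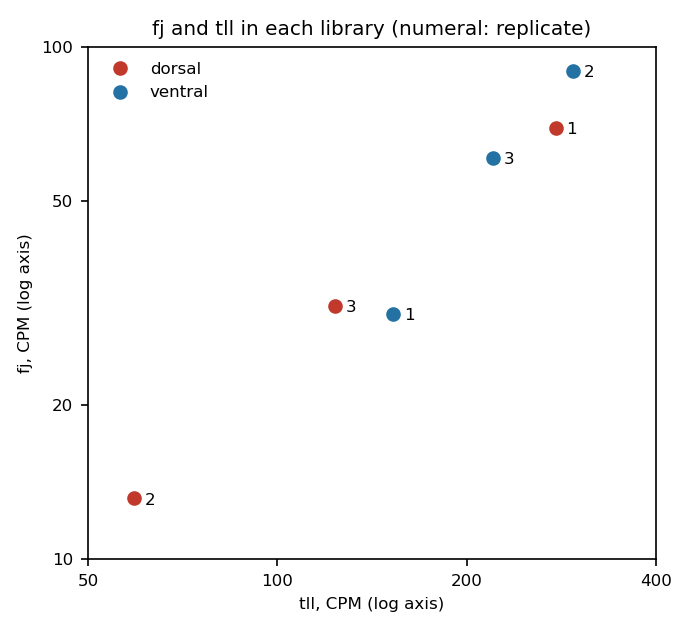
Level of fj (vertical log axis, CPM) against that of tll (horizontal log axis, CPM), 1 point per library, dorsal in red and ventral in blue, with the replicate number beside it. Dorsal replicate 2 lies lowest at 13.1 CPM of fj and 59.3 CPM of tll, ventral replicate 2 highest at 89.8 and 295 CPM, and the groups are interleaved along the diagonal.

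Of 27 other genes of the pathway, 25 were found by name and tested, and none passed with edgeR or DESeq2. Values were higher in dorsal libraries for 13 and higher in ventral libraries for 12, with a median log2 fold change of 0.053. The unadjusted p was under 0.05 for 3 of the 25 with edgeR (background 3.20%) and for 3 with DESeq2 (background 3.84%). Groups did not overlap for 3 of the 25 (background 7.26%). The teashirt gene tsh, a zinc finger factor that works with Homothorax and Yorkie in the eye disc, had the smallest p. It stood at 0.078, 0.28 and 0.34 CPM in dorsal replicates 1, 2 and 3, and at 0.72, 6.04 and 0.62 CPM in ventral replicates 1, 2 and 3. It was low everywhere except in ventral replicate 2 (log2 fold change -3.35 ± 1.18, unadjusted p = 0.0172, adjusted p = 1.00, edgeR), and without that library the log2 fold change was -1.50.

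Schip1, which encodes a partner of Expanded that recruits the kinase Tao, stood at 4.48, 8.005 and 4.01 CPM in dorsal replicates 1, 2 and 3 and at 17.5, 19.1 and 6.55 CPM in ventral replicates 1, 2 and 3. Ventral replicate 3 lay among the dorsal values (log2 fold change -1.38 ± 0.49, unadjusted p = 0.0177, adjusted p = 1.00, edgeR). With ventral replicates 1 and 2 left out together the log2 fold change was -0.25, in a fit with 1 ventral library. For nSyb, a gene of synaptic vesicles, values were 1.05, 1.06 and 1.64 CPM in dorsal replicates 1, 2 and 3, and 39.0, 6.63 and 0.618 CPM in ventral replicates 1, 2 and 3. The 6 neuron markers, none of them at 0 reads, summed to 760, 920 and 485 CPM in the dorsal libraries and to 652, 1231 and 624 CPM in the ventral ones, sums made up mostly of elav and fne, whose log2 fold changes were 0.042 and -0.30. The other 4 had higher means in ventral libraries, with log2 fold changes of -3.62 for nSyb, -1.74 for brp, -1.29 for Syt1 and -1.25 for CadN, each with an unadjusted p under 0.05 (edgeR, background 3.20%) and none past the adjusted test. For Syt1, brp and CadN, named after their values were seen, the groups did not overlap (background 7.26%), ventral replicate 3 included, where Schip1 lay among the dorsal values. The part of neuronal RNA in the level of Schip1 was not tested.

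Tao, the kinase that phosphorylates Hippo, stood at 74.0, 64.7 and 70.2 CPM in dorsal replicates 1, 2 and 3 and at 108, 87.0 and 83.5 CPM in ventral replicates 1, 2 and 3. The groups did not overlap, but the log2 fold change of -0.42 ± 0.18 did not pass (unadjusted p = 0.0451, adjusted p = 1.00, edgeR). The palmitoyltransferase gene approximated (app), which acts on Fat and Dachs, stood at 41.0, 26.0 and 36.6 CPM in dorsal replicates 1, 2 and 3 and at 23.2, 24.2 and 26.7 CPM in ventral replicates 1, 2 and 3 (log2 fold change 0.48 ± 0.24, unadjusted p = 0.0691, edgeR). Dorsal replicate 2 lay among the ventral values. Per exon length, the LIM domain gene Zyx was the highest of these genes, with a mean of 231 RPKM over 6 libraries, and tsh the lowest with 0.285 RPKM.

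A second list held 20 genes reported in Drosophila tissues to be raised by Yorkie. By name 18 were found, 14 of them passed the filter on low counts, and none passed the test with edgeR or DESeq2. The 4 that were not tested were vg, upd2, upd3 and mir-ban, and the last, the hairpin gene of the bantam microRNA, is listed with 0 reads in every library. In the annotation used here, all 81 bp of its exon lie within lncRNA:CR43334 on the same strand. No counts were found under the identifier of that lncRNA, so whether the overlap kept reads from mir-ban was not tested. The 0 sets no limit on the level of mir-ban. Of the 14 tested genes 7 had higher values in dorsal and 7 in ventral libraries, with a median log2 fold change of 0.0005. None had an unadjusted p under 0.05 with edgeR (background 3.20%), and 1 had with DESeq2 (background 3.84%), the Notch ligand gene Ser. Its level was 4.17, 4.14 and 4.63 CPM in dorsal replicates 1, 2 and 3, and 0.265, 1.57 and 2.14 CPM in ventral replicates 1, 2 and 3. The groups did not overlap (log2 fold change 1.70 ± 0.80, unadjusted p = 0.0593, adjusted p = 1.00, edgeR; unadjusted p = 0.0268, DESeq2).

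Among cell cycle targets, E2f1 stood at 260, 303 and 246 CPM in dorsal replicates 1, 2 and 3, and at 219, 233 and 197 CPM in ventral replicates 1, 2 and 3 (log2 fold change 0.32 ± 0.17, unadjusted p = 0.0818, edgeR). CycA, which encodes a mitotic cyclin, went the other way in value. It stood at 258, 285 and 286 CPM in dorsal replicates 1, 2 and 3, and at 343, 330 and 308 CPM in ventral replicates 1, 2 and 3 (log2 fold change -0.24 ± 0.15, unadjusted p = 0.140, edgeR). The FERM domain gene Mer, both a regulator of the kinases and a target, stood at 29.9, 21.9 and 24.2 CPM in dorsal replicates 1, 2 and 3 and at 16.8, 19.5 and 21.2 CPM in ventral replicates 1, 2 and 3 (0.41 ± 0.24, unadjusted p = 0.127, edgeR). In each of these 3 genes the groups did not overlap, and in none did the difference pass the threshold. With Ser they make 4 of 14 tested targets whose groups did not overlap, beside a background of 7.26% of all tested genes. Mer and crb are in both further lists, so Mer is also among the 3 other pathway genes whose groups did not overlap. The target list was chosen with earlier results known and was not tested as a set.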

How the data were processed

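RNA was measured in 3 dorsal and 3 ventral libraries. The sample titles gave the groups. Per the labels' protocols, SMART-Seq v4 and Nextera XT kits were used. The deposited counts are whole reads per gene. The submitters' processing notes name Trimmomatic, featureCounts, DESeq2, dm6 and BDGP6. Aligner, versions and strand setting are not given in the sources used. The authors' normalized counts, on a signal scale, are the counts over a factor for each library (0 values differed by more than 0.01 reads).

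Symbols, coordinates and exon lengths came from the BDGP6 (dm6) annotation, in which 17253 of 17559 identifiers (98.3%) had a symbol. The genes ds, slmb, InR, wg and tom were not analysed here by name. The test was edgeR 4.0.16 (R 4.3.3; TMM factors, filterByExpr, glmQLFit with robust = TRUE, no covariate), adjusted over 8707 genes. SE was taken as log2 fold change divided by the root of F, without sign, and 95% intervals use the t distribution with the degrees of freedom of the fit (scipy 1.17.1). The scripts were tested on simulated data. DESeq2 1.42.0, run on the same genes, limma 3.58.1 and other settings were alternatives.

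All 10 genes are named, with the 4 smallest p and the highest and lowest RPKM of each further list, and the 3 tested genes most correlated with the gene of smallest p among the 10. The genes crq, Rep and asRNA:CR45889, those like fj, and untested targets were named after their values were seen. Single genes of the cell type marker lists, nSyb, Syt1, brp and CadN among them, were also picked out after their values were seen. The 10 genes and the lists were chosen with earlier results of these data known.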

Additional observations from a re-analysis of the deposited data

How the results depend on the processing

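The number of called genes was 0 in each direction, for the 10 Hippo and Fat genes and for both further lists, in each of the 17 alternatives, which were RLE, upper-quartile and no scaling factors, other filters, DESeq2, limma-voom, limma-trend, the replicate block, each library left out, ventral replicates 1 and 2 left out together, and the roX2 level as a covariate, the last chosen after seeing the data. Calls were also few over all genes. Leaving aside the fit with 1 ventral library, the alternatives called 2 to 9 of all genes higher in dorsal cells. They called 2 to 19 higher in ventral cells, the most in both directions with DESeq2 (0.322% of all tested genes). At such rates, counts of 0 in short lists say little about these genes. The sign of the log2 fold change held in all 17 for 6 of the 10 genes (sd, wts, kibra, ft, fj and Diap1). For the other 4 it turned in some. Leaving out each library gave -0.089 to 0.10 for yki, -0.31 to 0.0048 for hpo, -0.25 to 0.24 for ex, -0.17 to 0.39 for dachs and, outside the 10, -0.44 to 0.081 for Zyx. With library size alone ex had 0.0011, without ventral replicates 1 and 2 it had 0.080, and with the roX2 covariate yki had -0.0053. The cause was not tested. Without ventral replicates 1 and 2, dachs had 0.80; that fit has 1 ventral library, taken to vary as much as the dorsal libraries do.

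Libraries with the same replicate number did not deviate together: their deviations had correlations of 0.0029, -0.038 and 0.059. The labels do not say whether such libraries were collected together, and these values cannot show it. With the replicate block the counts were again 0, fj had a log2 fold change of -0.85 and ft 0.28. The 3 libraries per group limit what can be seen: the interval of fj reached a 3.66-fold lower level in dorsal cells.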
